A study of Mus musculus with 6 samples.

Results

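The Onecut genes, Onecut1, Onecut2 and Onecut3, were followed in RNA-seq of maxillary prominences of mouse embryos at embryonic day 12.5. They were found by their symbols in the gene annotation, which gave 3 genes of the 53801 in the count files. The 3 genes were selected with the difference between the genotypes already known, so that difference is given for them as a description and without a test. The study asked what overexpression of the homeobox gene Dlx2 in neural crest-derived cells does to the developing upper jaw, and sequenced 3 samples of each of 2 genotypes, all of the C57BL/6 strain. The WT samples came from wild-type embryos, for which the labels name no Cre and no transgene. The other genotype, Wnt1cre; Rosa26Dlx2/- (called Dlx2OE here), carries 1 copy of a Dlx2-3xFlag cassette in the Rosa26 locus, driven by the CAG promoter behind a loxP-stop-loxP block, and a Cre recombinase under Wnt1 control that removes the block in the neural crest lineage. Cells of other origin in the dissected tissue, such as epithelium, endothelium and blood, are not targeted by this Cre. The RNA came from several littermates, and the sources do not say how embryos were divided among the samples, so a sample may be a pool and the p-values measure the spread between these samples.

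Onecut factors are transcription factors that bind DNA through a single CUT domain and a homeodomain. Onecut1, also called hepatocyte nuclear factor 6, acts in the liver and the pancreas, and Onecut1 and Onecut2 act together in horizontal cells, ganglion cells and cones of the retina. All 3 are also made by newly born neurons, among them motor neurons, spinal interneurons and sensory neurons, where they mark cells born early. Dlx2 and the Onecut genes belong to different branches of the homeobox superfamily.

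The 3 genes lie on different chromosomes of GRCm38 and share one layout, with the CUT domain encoded mostly by a long coding exon 1 and the homeodomain by a short coding exon 2. Onecut1 (ENSMUSG00000043013) lies at chr9:74861921-74891781 on the plus strand. Onecut3 (ENSMUSG00000045518) lies at chr10:80494835-80517276 on the plus strand. The coding sequences of Onecut1, Onecut2 and Onecut3 were 1395, 1515 and 1470 bp long without the stop codon, and their annotated exons added up to 4113, 16234 and 4776 bp. In global alignment the coding sequences of Onecut1 and Onecut2 were 76.4% identical, those of Onecut2 and Onecut3 71.2% and those of Onecut1 and Onecut3 69.7%. The longest stretch without a difference was 50 bp, between Onecut1 and Onecut3, against reads of 150 bp. The bases around that stretch, which encode the end of the CUT domain, show how close the genes come to each other and why reads could still be told apart. In the 120 bases from GENCODE coding positions 1010 to 1129 of Onecut1 and 1088 to 1207 of Onecut3, counted from the A of the start codon, the 13 differing bases are in capitals.
Onecut1: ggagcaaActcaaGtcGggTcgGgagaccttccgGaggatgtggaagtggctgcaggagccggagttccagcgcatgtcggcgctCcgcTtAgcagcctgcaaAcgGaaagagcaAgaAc
Onecut3: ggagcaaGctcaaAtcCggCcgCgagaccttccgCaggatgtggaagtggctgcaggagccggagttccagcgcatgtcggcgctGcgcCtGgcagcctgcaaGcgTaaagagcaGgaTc

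Of the 3 genes, Onecut1 is shown here with its promoter from the RefSeq promoter table (GRCm38.p6). Its 250 bases before the start site, at chr9:74861671-74861920 on the plus strand, are shown with each CG dinucleotide in capitals, since CG density is what sets this promoter apart from most others.
Onecut1 promoter: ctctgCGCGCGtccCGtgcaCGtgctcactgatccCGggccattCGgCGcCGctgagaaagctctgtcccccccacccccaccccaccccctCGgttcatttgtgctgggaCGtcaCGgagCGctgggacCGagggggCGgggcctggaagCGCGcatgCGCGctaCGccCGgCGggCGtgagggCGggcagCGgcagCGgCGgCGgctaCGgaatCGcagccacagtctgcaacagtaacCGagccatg
The GC content was 71.6%, higher than that of 92.7% of the 32851 promoters in the table, whose median was 52.4%. The window held 31 CG dinucleotides against a median of 6. Neither the homeodomain motif TAATTA, which Dlx proteins can bind, nor the Onecut core motifs ATCGAT and ATTGAT, nor the Lef/Tcf motif CTTTGAT was found in these letters on either strand. Over all promoters in the table, 4.84%, 0.728%, 6.72% and 3.21% held them in that order. These matches describe the letters of this window alone.

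The libraries held 26155500 to 31308813 read pairs counted on genes, so 3 counts, the limit that a count of 0 allows, stood at 0.0955 to 0.111 CPM (the count scaled to library size, with TMM factors). These limits and the counting intervals below cover counting error only. Dlx2 itself checked the labels, which averaged 41.0 CPM (SD 5.32, n = 3) in WT against 124 CPM (SD 5.96, n = 3) in Dlx2OE. Its log2 fold change was 1.60 (SE 0.118), with a Benjamini-Hochberg adjusted p of 0.00241 from the quasi-likelihood test of edgeR. All 15 fixed markers of maxillary mesenchyme passed the filter on low counts. Dlx2OE 3 stood apart in the share of read pairs outside annotated genes, at 14.7%, followed by Dlx2OE 2 at 7.81%, while the other 4 libraries lay between 5.03 and 5.75%.

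Onecut2 was the most abundant of the 3 genes and the 1 gene of the 3 with enough counts to pass the filter on low counts. It is ENSMUSG00000045991, at chr18:64340020-64400987 on the plus strand. WT 1 to 3 held 15, 67 and 37 of its reads, and Dlx2OE 1 to 3 held 145, 466 and 1273. This corresponded to 0.513, 2.22 and 1.19 CPM in WT and 4.89, 14.8 and 47.0 CPM in Dlx2OE. Every Dlx2OE sample lay above every WT sample, and the lowest of them, Dlx2OE 1, was at 2.20 times the highest WT sample. The Dlx2OE samples were also far apart from each other, with a ratio of 9.60 between Dlx2OE 3 and Dlx2OE 1. The mean was 1.31 CPM (SD 0.862, n = 3) in WT against 22.2 CPM (SD 22.0, n = 3) in Dlx2OE, so the SD in Dlx2OE was about as large as the mean. The fitted log2 fold change was 4.08 (SE 0.863), or 16.9-fold. It was 2.91 without Dlx2OE 3 and 4.69 without WT 2. Of the 17514 genes tested, 16.7% had 3 Dlx2OE values that all lay above the 3 WT values and 17.3% had them all below. Since Onecut2 was selected on this contrast, nothing is read from its place among them.

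Onecut1 and Onecut3 were near the limit of detection in WT and did not pass the filter. Onecut1 had 0, 4 and 0 read counts in WT 1 to 3 and 3, 25 and 48 in Dlx2OE 1 to 3. Its levels were 0, 0.133 and 0 CPM in WT and 0.101, 0.796 and 1.77 CPM in Dlx2OE. Dlx2OE 1 lay below WT 2, so the genotypes overlapped, and all but 3 of the 76 counts in Dlx2OE came from Dlx2OE 2 and 3. Onecut3 had 3, 1 and 1 read counts in WT and 4, 40 and 48 in Dlx2OE, or 0.103, 0.0332 and 0.0321 CPM in WT and 0.135, 1.27 and 1.77 CPM in Dlx2OE. The genotypes did not overlap, but WT 1 and Dlx2OE 1 differed by a single read count. In both genes Dlx2OE 1 stayed at about the level that 3 counts allow and the other Dlx2OE samples were well above it.

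**Figure D1:**
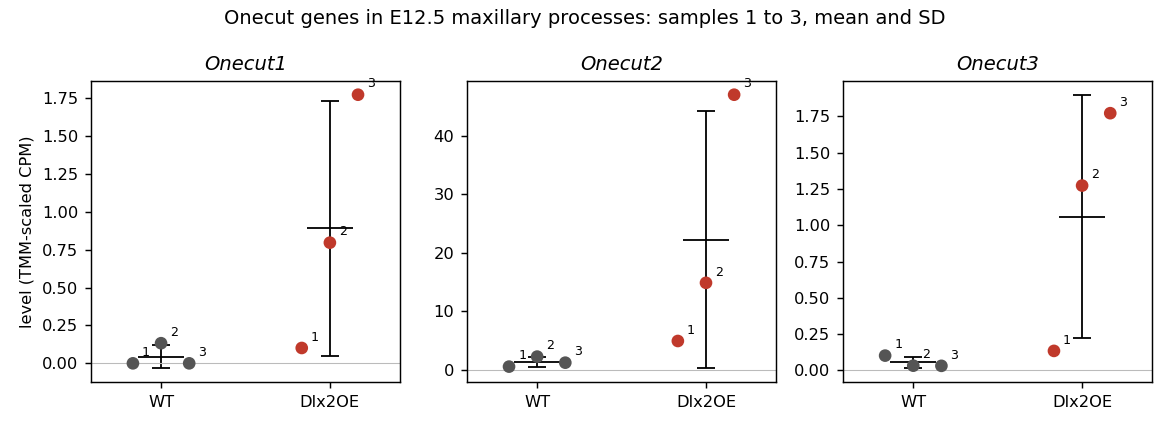
Level of Onecut1, Onecut2 and Onecut3 in TMM-scaled CPM (linear axes that differ between panels) in WT (grey) and Dlx2OE (red); points are samples numbered by replicate, and the horizontal line and bars give the mean and SD of 3 samples. In all 3 panels Dlx2OE 1 is the lowest and Dlx2OE 3 the highest Dlx2OE sample, and Onecut2 reaches 47.0 CPM where the other genes reach 1.77.

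The 3 genes had similar ratios between the genotypes in counts summed over samples. The summed ratio of Dlx2OE to WT, scaled to library size, was 19.5 for Onecut1 (76 against 4 counts; exact 95% counting interval 7.32 to 73.5). It was 16.3 for Onecut2 (1884 against 119 counts; 13.5 to 19.8) and 18.9 for Onecut3 (92 against 5 counts; 7.82 to 59.6). The 3 intervals overlapped, and they leave out the spread between samples, which was larger. The log2 ratio of summed counts of Onecut1, 4.29, was 3.38 without Dlx2OE 3 and 3.68 without WT 3. Without WT 2 no ratio could be formed for Onecut1, since the other WT samples held none of its reads. That of Onecut3, 4.24, was 5.00 without WT 1 and did not move by more than 1.5 times otherwise. The genes also divided their reads among the Dlx2OE samples in the same order. Dlx2OE 1 held 3.79, 7.33 and 4.24% of the summed Dlx2OE CPM of Onecut1, Onecut2 and Onecut3, Dlx2OE 2 held 29.8, 22.2 and 40.0%, and Dlx2OE 3 held 66.4, 70.4 and 55.7%.

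Per length of exon, Onecut2 remained the highest of the 3 genes in each of the 6 samples. Its level per kb of exon averaged 0.0805 ± 0.0531 CPM in WT against 1.37 ± 1.36 in Dlx2OE (SD, n = 3 each). On the same scale Onecut1 was at 0.0108 ± 0.0186 and 0.216 ± 0.204, and Onecut3 at 0.0117 ± 0.00845 and 0.222 ± 0.176. The order of Onecut1 and Onecut3 therefore could not be given, as their difference was far within the spread in both genotypes. The level of Onecut1 is also a low estimate. Over 2171 of its 4113 exon bases (52.8%), with all 290 coding bases of exon 2 among them, the annotation places exons of the noncoding gene Gm20649 on the same strand, and the union mode of the counting leaves reads that touch both genes uncounted. Gm20649 had 0 counts in all 6 samples, which says nothing about its level. Its 2740 exon bases all lie in exons of Onecut1 (2171) or Gm16551 (569), so union mode could count no read for it. Divided by the 1942 exon bases that belong to Onecut1 alone, its level was 0.0228 CPM per kb in WT and 0.458 ± 0.432 in Dlx2OE, still below Onecut2 in every sample.

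Summed neuronal markers ranked the Dlx2OE samples in the order of the Onecut genes. In WT they followed the order of Onecut2, whereas Onecut3 was highest in WT 1 (3 counts), where the markers were lowest. This was measured with a fixed list of 27 pan-neuronal and sensory neuron genes. Their summed level was 306, 709 and 495 CPM in WT 1 to 3 and 443, 1117 and 2401 CPM in Dlx2OE 1 to 3. Dlx2OE 1 lay within the WT range, and Dlx2OE 2 and 3 above it. By gene, 4 of the 27 were above all WT samples in Dlx2OE 1, 20 in Dlx2OE 2 and 24 in Dlx2OE 3, while 10, 3 and 2 were below all WT samples. The matching share of all genes in each single sample is not given here, so these counts are a description only. None of the 27 was called in edgeR, where the median log2 fold change was 1.71, 23 were positive and 13 had an unadjusted p under 0.05, a share to be read against 29.5% of all 17514 genes tested. The count depended on the processing, with 3 called higher and 1 lower in DESeq2, 9 and 1 in edgeR with no filter, 4 and 1 with a replicate block and 1 and 0 with a length and GC correction. Without Dlx2OE 1, 12 of the 27 were called higher in edgeR, and without Dlx2OE 3, 1 was called lower. Calls over all genes moved with the same settings. From 262 higher and 284 lower they went to 447 and 440 in DESeq2 and to 506 and 497 with no filter. They were 202 and 196 with a replicate block and 273 and 173 with the length and GC correction. Without Dlx2OE 1 they were 642 and 531, and without Dlx2OE 3 they were 139 and 115. The 4 markers with negative values were Ret, Calca, Runx1 and Ntrk2, and Ret, the receptor subunit for GDNF family ligands, had the lowest log2 fold change at -2.22 (SE 0.571, adjusted p = 0.0570 by edgeR). Pou4f1 (Brn3a), a factor of sensory neurons and retinal ganglion cells, was covered by 21, 70 and 19 reads in WT 1 to 3 and by 10, 633 and 1642 in Dlx2OE 1 to 3, a log2 fold change of 4.47 that missed the threshold (SE 1.38, adjusted p = 0.0844 by edgeR). It passed the threshold with DESeq2 (adjusted p = 0.0305), with no filter in edgeR (0.00785) and without Dlx2OE 1 (0.00513), and its log2 fold change was 3.07 without Dlx2OE 3 and 5.33 without WT 2. Nefm, a neurofilament subunit, was covered by 366, 1177 and 620 reads in WT 1 to 3 and by 386, 5644 and 14304 in Dlx2OE 1 to 3. The genotypes overlapped for Nefm and it was not called (log2 fold change 3.33, SE 1.07, adjusted p = 0.0916 by edgeR). The trigeminal ganglion, whose sensory neurons come in part from the neural crest, lies beside the maxillary prominence. In bulk samples such as these, more cells of a type and more RNA per cell cannot be told apart.

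**Figure D2:**
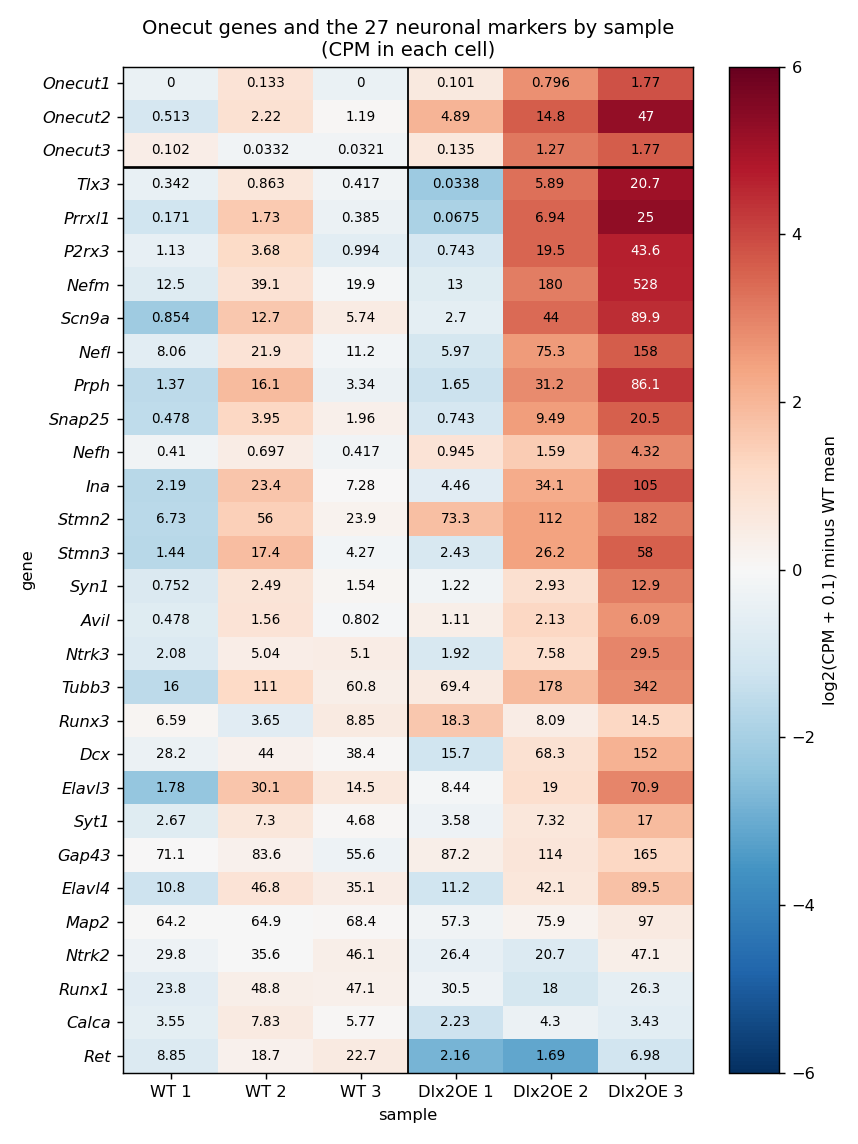
Level of the Onecut genes (above the line) and of the 27 neuronal markers, ordered by log2 fold change, by sample; numbers are CPM and colour is log2(CPM + 0.1) minus the mean of the 3 WT samples. Of the markers, 24 exceed all WT samples in Dlx2OE 3, 20 in Dlx2OE 2 and 4 in Dlx2OE 1, while Onecut2 exceeds all WT samples in each Dlx2OE sample. These counts are a description, without the matching share of all genes.

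The Onecut genes were also set against the neuronal markers of the same sample. Onecut2 stood at 1.67, 3.14 and 2.40 CPM per 1000 CPM of the 27 markers in WT and at 11.1, 13.3 and 19.6 in Dlx2OE. On this scale the Dlx2OE samples were all above the WT samples. Since Onecut2 was selected on this contrast, nothing is read from that separation. It also depends on the markers in the sum, where Gap43 and Map2 held 71.1 and 64.2 of the 306 CPM in WT 1. Against some single markers, such as Stmn2 and P2rx3, the genotypes overlapped, and against others, such as Tubb3, they did not. Onecut1 stood at 0, 0.187 and 0 per 1000 CPM of markers in WT and at 0.229, 0.713 and 0.738 in Dlx2OE. Onecut3 stood at 0.335, 0.0468 and 0.0648 in WT and at 0.305, 1.14 and 0.738 in Dlx2OE, where Dlx2OE 1 lay within the WT range. In Dlx2OE 1 these values of Onecut1 and Onecut3 rest on 3 and 4 counts. The part of neuronal RNA in the Onecut levels was not tested.

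**Figure D3:**
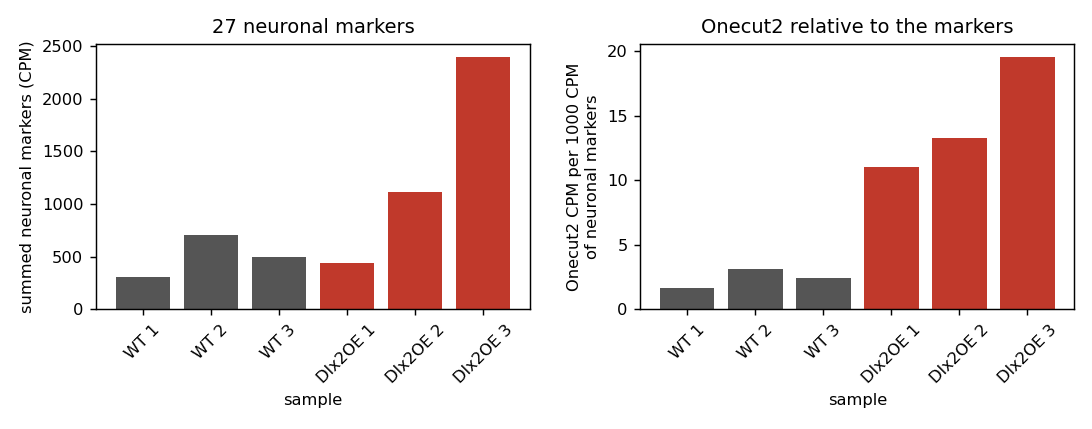
Summed CPM of the 27 neuronal markers (left) and Onecut2 CPM per 1000 CPM of those markers (right) in each sample, with bars from 0; WT grey, Dlx2OE red, 1 bar a sample. The marker sum of Dlx2OE 1 (443 CPM) lies among those of WT, and its Onecut2 ratio (11.1) is above the highest WT ratio (3.14). Onecut2 was selected on this contrast and the ratio depends on the markers in the sum, so nothing is read from that separation.

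Of the other cell types, the summed markers of glia, muscle and macrophages ranked the Dlx2OE samples in the order of the Onecut genes. Those of epithelium, of brain and eye, of melanocytes, of endothelium, of hepatocytes, of erythroid cells and of maxillary mesenchyme did not. Counts of called markers below stand beside 1.5% of all genes tested called higher and 1.62% called lower (log2 fold change above 1 or below -1 at an adjusted p below 0.05). The 11 markers of Schwann cell precursors and glia summed to 234 to 262 CPM in WT and to 203, 329 and 511 CPM in Dlx2OE 1 to 3, and Foxd3 was at 0 counts throughout. None of them was called in edgeR, with 3 at an unadjusted p under 0.05, and 1 was called lower with DESeq2. The 12 markers of brain, retina and lens summed to 11.3 to 60.7 CPM in WT and 29.4 to 71.1 CPM in Dlx2OE, the highest in Dlx2OE 1. Of these, Emx2, a homeobox gene of the cerebral cortex, was called higher in Dlx2OE (log2 fold change 1.61, SE 0.279, adjusted p = 0.0218 by edgeR). The 7 melanocyte genes included Dct and Pmel as called higher. The 12 epithelial genes summed to 831 to 1451 CPM in WT, 1916 CPM in Dlx2OE 1 and 638 and 631 CPM in Dlx2OE 2 and 3, with Krt8 and Krt18 called lower. The 8 hepatocyte markers summed to 41.1 CPM in WT 1 and to 0.369 to 3.48 CPM in the other 5 samples, and WT 1 had 0 counts of Onecut1. None of these was called in edgeR, with 2 at an unadjusted p under 0.05, and 2 were called lower with DESeq2 and 2 without WT 3. None of the muscle or endothelial markers (8 genes each) was called in edgeR or DESeq2, with 2 and 3 at an unadjusted p under 0.05. The muscle markers summed to 167, 314 and 181 CPM in WT 1 to 3 and to 88.9, 130 and 192 CPM in Dlx2OE 1 to 3. The macrophage markers summed to 89.5 to 103 CPM in WT and to 59.1, 61.0 and 63.5 CPM in Dlx2OE 1 to 3, below every WT sample. Of 8 macrophage markers C1qa and C1qc, and of 9 erythroid markers Hba-a2, were called lower, and of the 15 maxillary markers Alx4 and Tfap2b were called higher and Pax9 lower. The part of these cell types, and of the share of reads outside genes, in the Onecut values was not tested.

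Other genes that carry CUT domains were set beside the Onecut genes. Cux1, Cux2 and Satb1 all had more reads than the Onecut genes in WT. None was called in edgeR or DESeq2, with 1 at an unadjusted p under 0.05 in edgeR. Cux1 stood at 131 ± 16.5 CPM in WT and 128 ± 29.2 in Dlx2OE (SD, n = 3 each). The fitted difference was -0.04 on the log2 scale, and its sign changed when library sizes alone were used for scaling. Cux2, a factor of upper-layer cortical neurons, stood at 14.8 ± 3.23 and 20.7 ± 5.26 CPM (log2 fold change 0.48, adjusted p = 0.203 by edgeR). Satb1 stood at 36.6 ± 4.81 and 51.9 ± 8.64 CPM (0.51, adjusted p = 0.0788).

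Genes known to act with Onecut factors elsewhere were then counted in 4 further fixed lists. Together with the CUT relatives these 5 lists held 88 different genes reported here, of which 55 passed the filter. Of these 55, 7 (12.7%) were called higher in Dlx2OE (log2 fold change above 1 at an adjusted p below 0.05) and 2 (3.64%) were called lower (below -1). Among all 17514 genes tested, 262 (1.5%) were called higher and 284 (1.62%) lower, and at any fold change 2.99% were higher and 3.46% lower. The lists were written with earlier results of these data known, so these shares are a description and not a test of the lists. Log2 fold changes had a median of -0.06 over the 55 genes and of 0.003 over all genes. Counts at any fold change were the same 7 and 2. They depended on single samples, with 2 higher and 0 lower without WT 1, 1 and 0 without WT 2, 5 and 3 without WT 3, 15 and 7 without Dlx2OE 1, 3 and 0 without Dlx2OE 2, and 5 and 0 without Dlx2OE 3.

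The neuronal birth-time code is the series of factors that neurons switch on after their Onecut phase. Of 8 tested genes of 10, Zfhx3 and Zfhx4, both large zinc finger homeobox proteins, rose and the other 6 were not called, with 4 positive and 4 negative values among the 8. Zfhx3 stood at 45.6, 55.4 and 62.8 CPM in WT and at 202, 210 and 236 CPM in Dlx2OE. The 3 Dlx2OE samples were thus close together, unlike those of the Onecut genes. Its log2 fold change was 1.98 (SE 0.139, adjusted p = 0.00241 by edgeR), and it was called in each of 14 alternative analyses. Zfhx4 stood at 209, 156 and 186 CPM in WT and at 337, 425 and 382 CPM in Dlx2OE (log2 fold change 1.05, SE 0.144, adjusted p = 0.0116). Zfhx4 was not called without WT 2 (0.94, adjusted p = 0.0632) or, since its fold change was then too small, without Dlx2OE 2 (0.97, adjusted p = 0.0477) and with the length and GC correction (0.70, adjusted p = 0.0361). The median log2 fold change of the 8 genes was 0.09.

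In the retinal list, Prdm1, Tfap2a and Tfap2b rose and Prox1 fell among 13 tested genes of 24. Prdm1 (Blimp1), which directs precursors to a photoreceptor fate, stood at 2.63, 3.68 and 3.43 CPM in WT and at 35.3, 10.7 and 9.19 CPM in Dlx2OE (log2 fold change 2.50, SE 0.516, adjusted p = 0.0348 by edgeR). Without Dlx2OE 1 its log2 fold change was 1.60. Tfap2a and Tfap2b (AP-2 factors of amacrine and horizontal cells, also active in the neural crest) had log2 fold changes of 1.48 (SE 0.250, adjusted p = 0.0207) and 1.58 (SE 0.371, adjusted p = 0.0464). All 3 were highest in Dlx2OE 1, the Dlx2OE sample with the lowest Onecut levels. Isl1, made by retinal ganglion cells and sensory and motor neurons, missed the threshold (log2 fold change 1.08, SE 0.515, adjusted p = 0.203 by edgeR). It was at 0.39 without Dlx2OE 3, and it passed the threshold without Dlx2OE 1 (adjusted p = 0.0170). The bHLH factor Neurod4, named after its values were seen, did not pass the filter and had 0.0342, 0.0664 and 0.128 CPM in WT and 0.0338, 3.82 and 8.86 CPM in Dlx2OE. Other uncalled genes went the other way. Otx2 was at -3.18 (SE 0.862, adjusted p = 0.0628 by edgeR), Six3 at -1.30 (SE 0.836, adjusted p = 0.328) and Pax6 at -0.28. Of the 13 genes, 9 had positive and 4 negative log2 fold changes, and the median was 0.99.

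In the liver and pancreas list, Foxa1 and Prox1 fell among 13 tested genes of 24 and none rose. Foxa1, a forkhead pioneer factor, stood at 11.8, 27.3 and 17.1 CPM in WT and at 5.74, 2.13 and 5.13 CPM in Dlx2OE (log2 fold change -2.11, SE 0.423, adjusted p = 0.0327 by edgeR). Prox1, a homeobox factor of hepatocytes, lymphatic vessels and horizontal cells, stood at 13.4, 19.5 and 18.8 CPM in WT and at 8.34, 5.89 and 10.1 CPM in Dlx2OE (-1.09, SE 0.239, adjusted p = 0.0400). The median log2 fold change of -1.09 included hepatocyte genes that were high in WT 1 alone, such as Afp (alpha-fetoprotein) with 884 counts there, 38 and 13 in the other WT samples and 0 to 5 in Dlx2OE.

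Among the neuron subtype factors reported here, 20 tested genes of 30, Lhx9 and Pou3f1 rose. Lhx9, a LIM homeobox factor of dorsal interneurons, stood at 0.239, 0.465 and 0.449 CPM in WT and at 1.18, 4.30 and 1.74 CPM in Dlx2OE (log2 fold change 2.63, SE 0.551, adjusted p = 0.0356 by edgeR). Without Dlx2OE 2 it was at 1.91 and not called (adjusted p = 0.0849). Pou3f1, a POU factor of Schwann cells and some motor neurons, stood at 0.615, 0.564 and 0.738 CPM in WT and at 8.51, 3.22 and 4.69 CPM in Dlx2OE (3.09, SE 0.404, adjusted p = 0.0116). The median log2 fold change of the 20 genes was -0.19. Of the 9 called genes of all lists, Zfhx3 alone was called in every leave-one-out analysis, and without WT 2 the other 8 were not called, with adjusted p-values of up to 0.167 in edgeR over all alternatives.

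**Figure D4:**
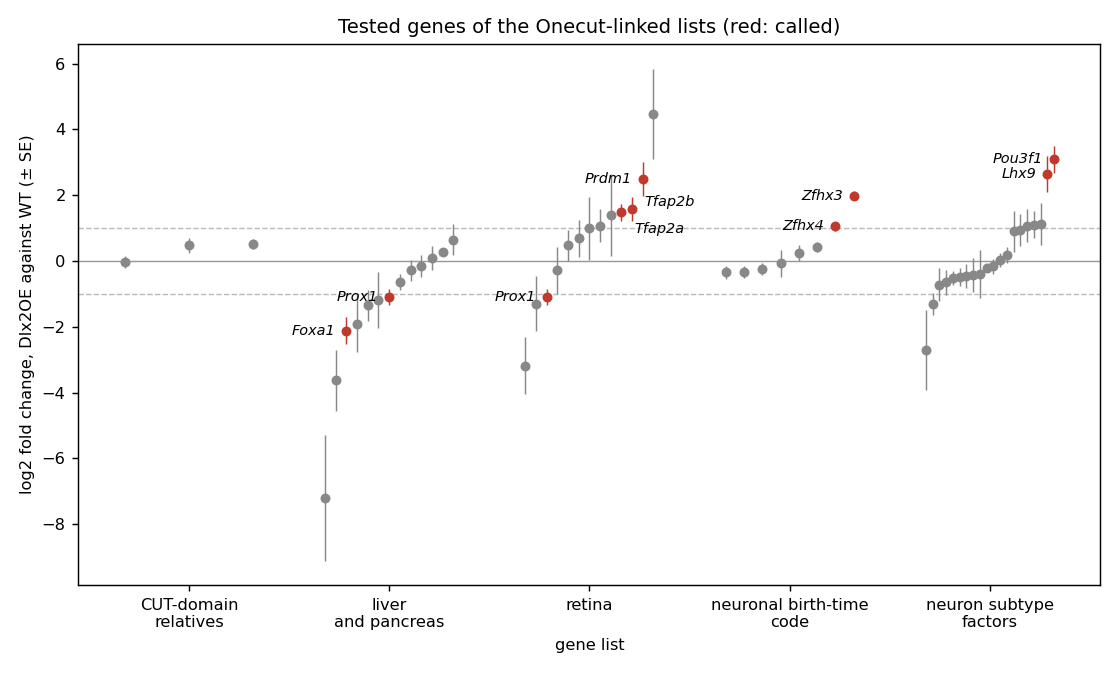
Log2 fold change of Dlx2OE against WT with its SE for the tested genes of the 5 lists, ordered by value within each list; red points are called, grey points are not, and dashed lines mark log2 fold changes of 1 and -1. Zfhx3 has the smallest error of the called genes, and the point at 4.47 in the retinal list is Pou4f1, which is not called.

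The genes beside the Onecut genes were examined to see whether neighbours differed along with them. Within 200 kb there were 48 other annotated genes in the files, and 32 passed the filter, 3 beside Onecut1, 5 beside Onecut2 and 24 beside Onecut3. A single gene of the 32 was called in each direction, where 1.5% of all genes tested were called higher and 1.62% lower. St8sia3, a sialyltransferase of the brain that lies 60409 bp before Onecut2, held 23, 25 and 18 reads in WT 1 to 3 and 57, 88 and 102 in Dlx2OE 1 to 3 (log2 fold change 1.95, SE 0.333, adjusted p = 0.0211 by edgeR). Its order among the Dlx2OE samples was that of Onecut2, over a much narrower range. The other 4 tested neighbours of Onecut2 had log2 fold changes of 0.00 or below, down to -0.80. Uqcr11, a subunit of respiratory complex III that lies 88005 bp before Onecut3, fell (log2 fold change -1.15, SE 0.222, adjusted p = 0.0297). Both calls were lost without WT 1, WT 2, Dlx2OE 2 or Dlx2OE 3, with adjusted p-values of 0.0608 to 0.0918 for St8sia3 and 0.0861 to 0.124 for Uqcr11. Beside Onecut1, the motor protein gene Myo5a had a log2 fold change of 0.69 (adjusted p = 0.0315), and was the 1 further neighbour past the p threshold at any fold change. The median log2 fold change of the 32 neighbours was 0.09.

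**Figure D5:**
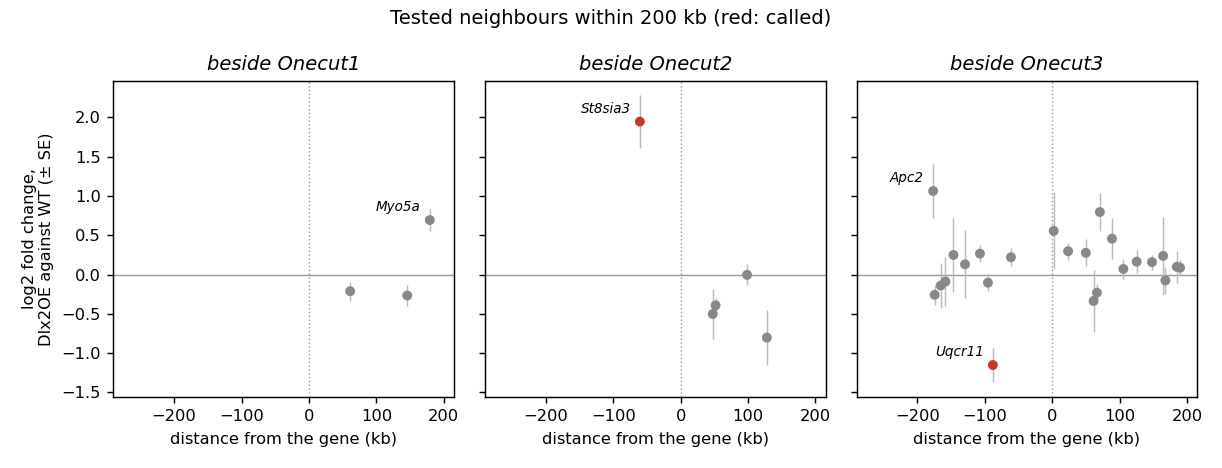
Log2 fold change of Dlx2OE against WT with its SE for the 32 tested genes within 200 kb of each Onecut gene, plotted against distance in kb from the nearer end of that gene (negative before its start). St8sia3 (60409 bp before Onecut2) and Uqcr11 (88005 bp before Onecut3) are the called genes in red, and most others lie near 0.

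A noncoding neighbour of Onecut1 was close to it both in position and in level. Gm16551, at chr9:74847983-74860134 on the plus strand, ends 1787 bp before the start of Onecut1, and 569 of its exon bases overlap exons of Gm20649. WT 1 to 3 held 0, 5 and 0 of its reads and Dlx2OE 1 to 3 held 0, 48 and 68, where Onecut1 had 0, 4 and 0 and then 3, 25 and 48. Like Onecut1 it did not pass the filter, and the genotypes overlapped. Its summed ratio of Dlx2OE to WT was 23.9 (exact 95% counting interval 9.93 to 74.8), as a description of a gene named after its values were seen.

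The protein-coding genes whose levels most resembled Onecut2 over the 6 samples were Ube2ql1, Zswim4, Cacna1e, Mroh2a and Dnah17. Their Pearson correlations of log2 CPM with Onecut2 were 0.998, 0.997, 0.994, 0.990 and 0.989 among 12503 other genes whose mean log2 CPM was 1 or more, and all 5 ranked the samples in the same order as Onecut2. With each genotype's mean subtracted the correlations were 0.993, 0.992, 0.983, 0.972 and 0.965. These are descriptions over 6 samples of 2 genotypes that share libraries and depth, and the 5 genes are the extremes of a large set. They were chosen for their likeness to Onecut2, itself selected on this contrast, so their differences between genotypes are given without a test. Cacna1e, the pore subunit of R-type calcium channels of neurons, was nearest to Onecut2 in the size of its change among the 5. It stood at 1.37, 7.20 and 3.40 CPM in WT and at 11.4, 27.5 and 69.2 CPM in Dlx2OE (log2 fold change 3.17, SE 0.751). Ube2ql1, a relative of ubiquitin-conjugating enzymes, and Dnah17, an axonemal dynein heavy chain, had log2 fold changes of 1.97 and 1.21. Zswim4 and Mroh2a had the same sample order with log2 fold changes of 0.18 and 0.26. Ranked by the correlation within genotypes instead, the first was Syt1, a synaptic vesicle protein and 1 of the 27 neuronal markers, at 0.999. Fam189a2, Dusp8, Rims3 and Atp6v0e2 came next, at 0.999, 0.998, 0.998 and 0.997. The log2 fold changes of these 5 genes were 0.93, -0.08, 1.23, 1.38 and -0.04 in that order.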

How the data were processed

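Poly(A)-selected RNA from maxillary prominences of embryonic day 12.5 mice (3 WT and 3 Dlx2OE samples) was sequenced by the authors in pairs of 150-base reads, which they trimmed, aligned to mm10 with STAR 2.7.3a and counted per gene with HTSeq 0.12.4 in union mode. The deposited values are raw counts, with 1 file a sample and 5 summary lines that were left out of library sizes and tests; 16.8 to 25.3% of listed read pairs were in those lines. The annotation release and strand setting of the counting are not given in the sources used here. Genotypes and replicate numbers came from the sample labels. Symbols, positions and exons came from GENCODE M21 (GRCm38), which held 53620 of the 53801 identifiers in the files, and promoters from RefSeq (GRCm38.p6).

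Genes with enough counts were kept with filterByExpr (minimum count 10), scaled by TMM and tested with edgeR 4.0.16 (quasi-likelihood F test, genotype alone, all 6 samples, Benjamini-Hochberg over 17514 genes) in R 4.3.3. A call needed a log2 fold change beyond 1 or -1 as well as an adjusted p below 0.05. Coding sequences were aligned with Biopython 1.88 in Python 3.11.15, and counting intervals were exact at 95%. The fits were tested on simulated data. DESeq2 1.42.0, other scalings and filters, a replicate block, a length and GC correction and leaving out each sample were alternatives. Same-numbered samples did not deviate together (correlations -0.0718, -0.211 and 0.0731), so the main fit has no block.

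Members and gene lists were chosen with earlier results of these data known. Named genes were the members, the CUT relatives, the tested neighbours within 200 kb, the called genes of each list (up to 5 a direction), up to 3 called genes of each marker list and the 5 genes most like Onecut2; further genes, among them Pou4f1, Nefm, Ret and Isl1, were named after their values were seen. A few genes of the fixed lists are not reported here and were left out of every list count, sum and median. No protein sequence or genome sequence was used here.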

Additional observations from a re-analysis of the deposited data

Results flagged for a closer look

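Read pairs outside annotated genes made up 7.81% of the listed pairs in Dlx2OE 2 and 14.7% in Dlx2OE 3, above the 5.03 to 5.43% of the WT libraries, in a line of the files that no comparison between genotypes used. Dlx2OE 2 and 3 were also the libraries with most reads of all 3 Onecut genes, and the part of this share in their levels was not tested. The noncoding gene Gm16551, which lies 1787 bp before Onecut1 and was too low for the test, had 116 counts over the Dlx2OE samples and 5 over the WT samples.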

How the results depend on the processing

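The log2 fold change of Onecut2 (4.08) stayed positive and within 1 SD of the spread between samples, at 3.44 to 4.16 under the other scalings, filters, corrections and tools and at 2.91 to 4.69 when a sample was left out. The log2 ratios of Onecut1 and Onecut3 (4.29 and 4.24) were 3.38 to 4.82 and 3.71 to 5.00 over theirs. The numbers of called genes moved more. Of all genes, 262 were called higher and 284 lower, against 447 and 440 with DESeq2, 506 and 497 with no filter, 524 and 606 at any fold change, 39 to 642 and 35 to 531 with a sample left out, and 173 lower with the length and GC correction. Of the Onecut-linked genes, 7 were called higher and 2 lower, against 11 and 9 with no filter, 7 lower with DESeq2, 1 lower with library size alone, and 1 to 15 and 0 to 7 with a sample left out. Of the neighbours, 1 was called in each direction, against 2 higher with DESeq2, 3 higher with no filter, 2 higher and 0 lower with the length and GC correction, 2 higher at any fold change, and 0 to 3 and 0 to 2 with a sample left out.

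Replicate numbers did not pair the samples, so the replicate block is given as a setting only. With it, 202 genes were called higher and 196 lower, 5 and 2 of the Onecut-linked genes and 1 and 1 of the neighbours, and Onecut2 was at 3.77. With the replicate block and the length and GC correction together these were 23 and 21, 1 and 1, and 0 and 0, with Onecut2 at 3.44, and fewer degrees of freedom remain in that fit. The deviations of same-numbered samples correlated at -0.211 to 0.0731, and 1 of 3 WT samples correlated best with its own number.

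Cux1 changed sign, from -0.04 to 0.0221 with library size alone and to 0.0254 and 0.117 without WT 3 and without Dlx2OE 2. Its range was -0.223 to 0.117 with a sample left out. It moved furthest with the length and GC correction, to -0.503, and to -0.525 with the replicate block added. Scaling by library size alone moved the median of all genes to 0.07. Where a call was lost on leaving out a sample, fewer samples remained in the fit. Counts of 0 to 4 in WT limit the precision of Onecut1 and Onecut3, and depth alone cannot narrow the spread among the Dlx2OE samples.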
